A study of Mus musculus with 24 samples.

Results

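The 10 genes described here encode transcription factors that set effector and memory fate in T cells: Tbx21 (T-bet), Eomes, Id2, Id3, Prdm1 (BLIMP-1), Bcl6, Zeb2, Bach2, Batf and Tox. They were chosen by name for their known function, with earlier results of these data known. They are 10 of the 35817 gene symbols to which the transcripts were summed. Their RNA was measured in 24 libraries of spleen CD8 or CD4 T cells, 3 in each of 8 groups. Cat-Tg mice carry a transgene for a truncated, stabilised form of human β-catenin, driven in T cells by the proximal Lck promoter, on a C57BL/6 background. WT mice are C57BL/6 without the transgene. Pre-tx libraries came from T cells sorted from the spleens of untransplanted adult mice of either genotype, 3 mice each, with both cell types taken from each mouse. Post-tx libraries came from donor T cells, sorted by the donor's MHC class I molecule on day 7 after an allogeneic transplant from the spleens of BALB/c recipients that had been lethally irradiated. The recipients had been given Cat-Tg or WT CD4 and CD8 T cells in equal parts, together with T cell-depleted bone marrow from WT mice. The sample descriptions carry one prefix for Cat-Tg and another for WT libraries, and what these prefixes mark is not given in the sources used here. If they mark a difference in handling, it cannot be told apart from genotype. Per the study's methods the WT data also appear in other work of the same laboratory.

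A naive T cell that meets antigen becomes a short-lived effector cell or a longer-lived memory cell, and this choice is set by transcription factors that oppose each other. T-bet and its T-box relative Eomes drive the cytotoxic and interferon programme. Id2 and Id3 hold E proteins inactive, Id2 chiefly in effector cells and Id3 chiefly in naive cells and in cells that keep memory potential. BLIMP-1 promotes terminal differentiation and represses Bcl6, the repressor required by follicular helper CD4 cells and for central memory. ZEB2 acts with T-bet in terminal effector cells. BACH2 holds cells in a less differentiated state, in part by competing for AP-1 sites with factors such as BATF, which pairs with JUN proteins and IRF4 after antigen receptor signalling. TOX rises with chronic stimulation and in follicular helper cells. β-Catenin acts in the nucleus with TCF-1 and LEF-1, which belong to the naive and memory programme.

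The libraries held between 11135713 and 50519825 estimated counts, with a median of 27062440. Levels are in CPM, the count of a gene relative to its library total, scaled by trimmed mean of M values (TMM) over all libraries, in the order of replicates 1 to 3. A level of 3 counts, the limit that a count of 0 allows, lay between 0.0596 and 0.27 CPM, which covers counting error only. All 10 genes passed the filter on low counts in every fit. Per the study's methods each group had 3 recipients, and both cell types were sorted from each recipient and from each pre-tx mouse, but whether a replicate number marks the same mouse in CD4 and CD8 groups is not stated. The p-values cover the spread between these samples. In bulk libraries fewer cells of a type and less RNA per cell cannot be told apart.

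The defining markers went against the labels in the 6 WT pre-tx libraries. Cd8a made up between 99.3% and 99.9% of the summed Cd8a and Cd4 CPM in the Cat-Tg CD8 pre-tx libraries and between 1.27% and 3.39% in the Cat-Tg CD4 pre-tx libraries. For libraries with a WT pre-tx label the same share lay between 50% and 63.9% (CD8) and between 52.4% and 65.4% (CD4). The summed level of 17 B cell markers was 21200 ± 932 CPM (SD, n = 3) for WT and 751 ± 314 CPM for Cat-Tg CD8 pre-tx, and 32900 ± 4660 CPM for WT and 2390 ± 484 CPM for Cat-Tg CD4 pre-tx. The sum of 12 T cell markers was lower in the WT pre-tx libraries, at 2160 ± 93.5 and 3340 ± 418 CPM, than in the Cat-Tg pre-tx libraries, at 10100 ± 1290 and 8240 ± 651. Every comparison with a WT pre-tx group therefore carries this difference in cell makeup, whose part in the results was not tested as a cause. Levels per 1000 T cell marker counts are given beside the called results that use a WT pre-tx group. When B cell and myeloid marker scores entered the fits as covariates, none of the 10 genes was called in any comparison. Over all genes these fits called 0 in each comparison over time and between genotypes, and at most 14 between cell types. They therefore could not tell the 10 genes from the rest, and no conclusion on cell makeup is drawn from them.

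**Figure D1:**
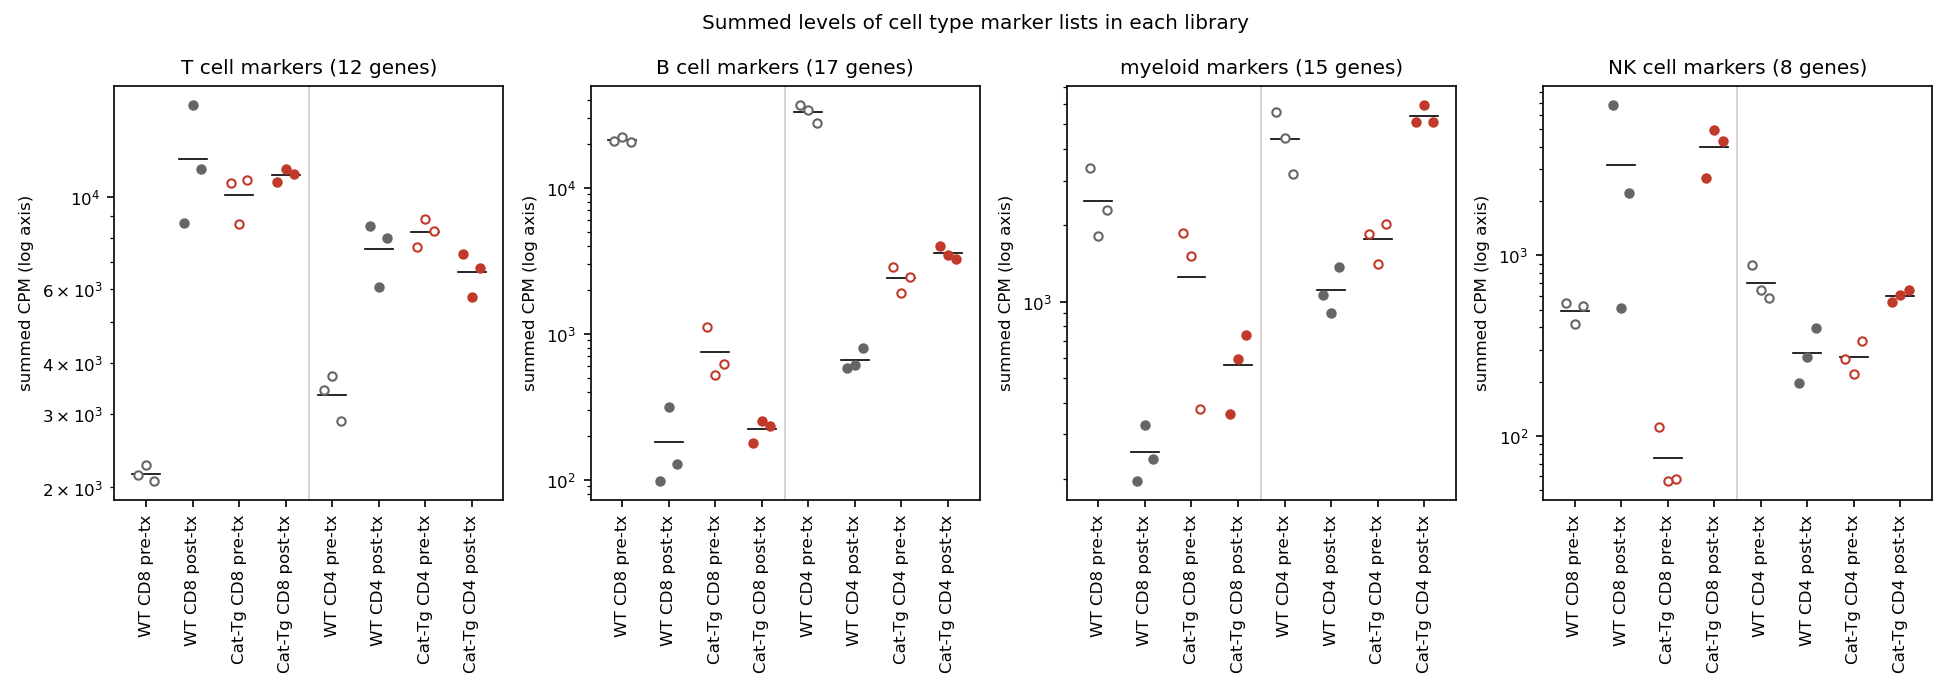
Summed CPM (log axis) of T cell, B cell, myeloid and NK cell marker genes in each library (open points pre-tx, filled points post-tx, WT grey, Cat-Tg red, bars are means of 3). The 3 WT CD8 pre-tx libraries lie between 20400 and 22200 CPM for B cell markers, whereas the Cat-Tg CD8 pre-tx libraries lie between 523 and 1110.

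The post-tx libraries carried their labels, with Cd8a shares from 99% to 99.8% in CD8 and from 0.0895% to 0.635% in CD4 groups. Among them, Cat-Tg CD4 post-tx held more non-T RNA than WT CD4 post-tx: 3560 ± 368 against 664 ± 116 CPM for B cell markers and 5400 ± 491 against 1110 ± 237 CPM for 15 myeloid markers. WT CD8 post-tx was the least even group, with summed T cell markers of 8650, 16700 and 11700 CPM and Cd3e, a subunit of the T cell receptor complex, at 245, 1370 and 636 CPM. Ctnnb1 counts cannot check the transgene, since the index holds mouse transcripts and the transgene is human. A gene was called when the edgeR quasi-likelihood test gave a Benjamini-Hochberg adjusted p of at most 0.05 over all genes tested and the fold change was at least 2.

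The promoters of the genes on the BLIMP-1, Bcl6 and Bach2 axis are shown because Prdm1 was called higher and Bach2 or Bcl6 lower in comparisons over time. Each sequence is the 250 bases before a RefSeq start site on GRCm38.p6, read 5′ to 3′ on the gene's strand. Capitals mark the AP-1 word TGANTCA in Prdm1 and the BCL6/STAT word TTCNNNGAA in Bach2 and Bcl6. The regions are chr10:44458749-44458998 (minus strand) for Prdm1, chr4:32417185-32417434 (plus strand) for Bach2, and chr16:23988853-23989102 and chr16:23981284-23981533 (both minus strand) for promoters 1 and 2 of Bcl6.
Prdm1: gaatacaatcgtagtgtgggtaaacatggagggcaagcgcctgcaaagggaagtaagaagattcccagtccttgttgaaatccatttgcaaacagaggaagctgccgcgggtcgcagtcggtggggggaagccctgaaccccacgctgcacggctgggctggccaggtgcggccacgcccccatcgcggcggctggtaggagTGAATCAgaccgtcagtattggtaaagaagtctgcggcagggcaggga
Bach2: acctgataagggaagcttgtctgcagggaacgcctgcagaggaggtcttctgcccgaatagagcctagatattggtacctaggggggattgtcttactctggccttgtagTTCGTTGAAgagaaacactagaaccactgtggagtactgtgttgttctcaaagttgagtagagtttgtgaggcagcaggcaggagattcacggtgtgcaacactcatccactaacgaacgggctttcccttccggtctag
Bcl6 promoter 1: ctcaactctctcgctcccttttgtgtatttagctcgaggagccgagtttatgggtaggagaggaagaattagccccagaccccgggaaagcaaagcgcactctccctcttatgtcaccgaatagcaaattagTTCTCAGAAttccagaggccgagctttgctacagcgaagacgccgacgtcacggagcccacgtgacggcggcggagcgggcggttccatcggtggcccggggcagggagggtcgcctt
Bcl6 promoter 2: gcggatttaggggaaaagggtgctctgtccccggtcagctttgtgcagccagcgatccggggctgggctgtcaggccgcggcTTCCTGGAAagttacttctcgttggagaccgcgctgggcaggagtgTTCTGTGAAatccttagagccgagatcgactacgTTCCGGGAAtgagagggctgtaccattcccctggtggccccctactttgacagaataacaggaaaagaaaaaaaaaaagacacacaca
The TTCNNNGAA word was also present in Zeb2 promoters 2 and 3, so that 5 of 13 promoters of the 9 genes in the table held it, against 7.02% of 32851 promoters. TGANTCA was present in Prdm1 and in Zeb2 promoter 4, against 6.75% of all promoters, and the Zeb2 matches were also TGAGTCA, found in 4.46% of all. The TCF/LEF words CTTTGAA and CTTTGAT, present in 4.46% and 3.21% of all promoters, matched 0 of the 13. The same was true of the T-box word AGGTGTG (5.1% of all), the BLIMP-1 word AAGTGAAA (1.36%) and an NF-kappaB word (0.356%). The NFAT word TGGAAA (18.6% of all) was present in Bcl6 and Zeb2, overlapping a TTCNNNGAA match in Bcl6 promoter 2, and the E-box CANNTG (66.2%) in Tbx21, Id2, Batf, Bcl6 and Prdm1. Both strands were searched. A match in this window is a description of letters and not of binding.

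The first comparison asked how the factors changed between the starting cells and day 7 in the recipient. In Cat-Tg CD8 cells Tbx21, Eomes, Id2, Prdm1, Batf and Tox rose and Id3 and Bach2 fell. These 8 of 10 genes compare with 13.9% of the 15960 genes tested. In Cat-Tg CD4 cells Tbx21, Eomes, Id2 and Prdm1 rose and Id3 and Bach2 fell, 6 of 10 against 40.9% of 17227 genes. In WT CD8 cells 7 of 10 were called (Tbx21, Id2 and Batf higher, Id3, Bcl6, Zeb2 and Bach2 lower) against 23.6% of genes, and in WT CD4 cells 7 of 10 (Tbx21, Id2, Prdm1, Batf and Tox higher, Id3 and Bach2 lower) against 22.1%. Both WT counts use the pre-tx libraries whose markers went against their labels. Some of these WT calls were lost or turned on the T cell marker scaling, as given for each gene below. The 3 post-tx values did not overlap the 3 pre-tx values for 8, 7, 7 and 8 genes in Cat-Tg CD8, WT CD8, Cat-Tg CD4 and WT CD4 cells, against 49.2%, 34.2%, 56.8% and 43.8% of all genes. The comparisons over time, between genotypes and between cell types share libraries with each other. Because the 10 genes were chosen with earlier results known, these counts are a description.

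**Figure D2:**
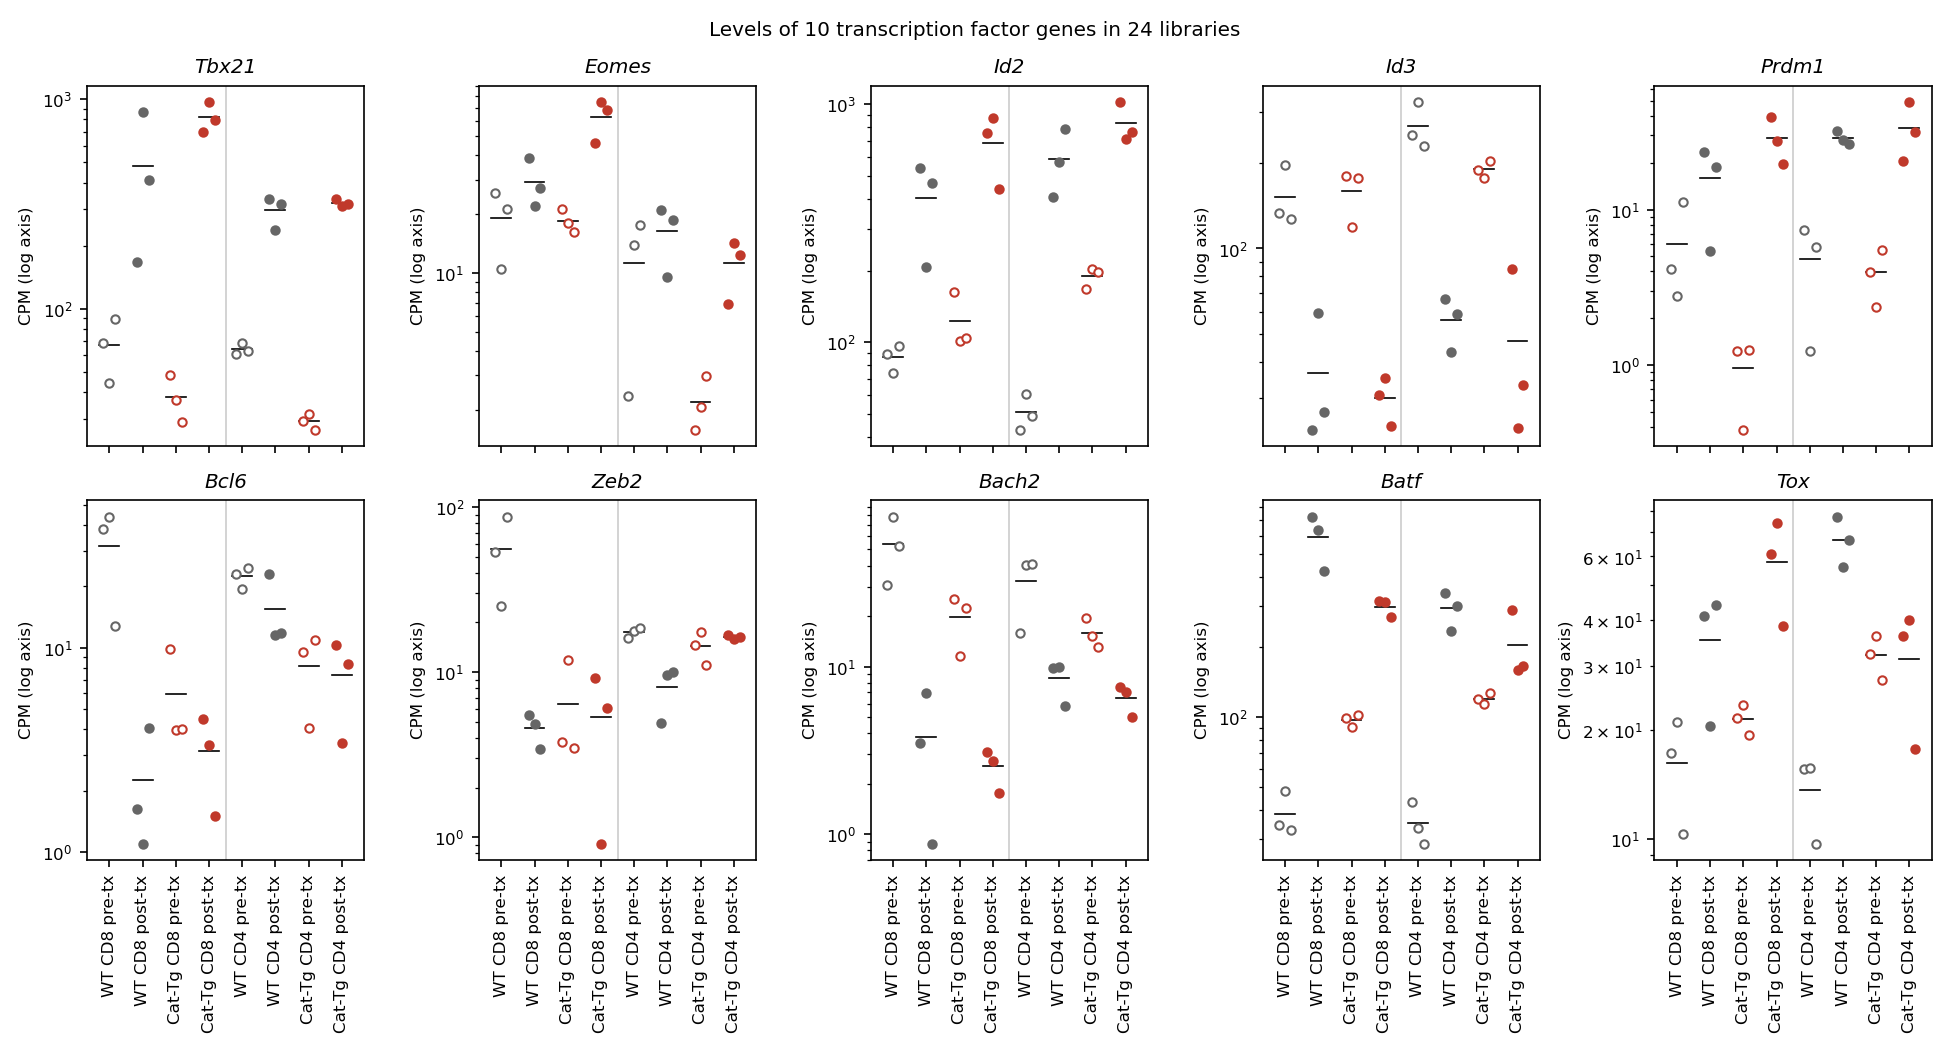
CPM (log axis) of each of the 10 genes in every library, by group (open points pre-tx, filled points post-tx, WT grey, Cat-Tg red, bars are means of 3). Tbx21 is at 167 CPM or more in all post-tx libraries and at 89.3 CPM or less in all pre-tx libraries, and Id3 shows the reverse order, from 23.2 to 84.9 CPM post-tx and from 119 to 325 CPM pre-tx.

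Tbx21, the master regulator of type 1 T cells, was the more abundant of the T-box pair per length, at 294 ± 33.7 TPM (a measure of abundance that accounts for transcript length) against 16.3 ± 2.68 TPM for Eomes in Cat-Tg CD8 post-tx. In Cat-Tg CD8 cells it measured 48.6, 36.8 and 28.8 CPM pre-tx and 699, 965 and 799 CPM post-tx, 21.7-fold higher (log2 fold change 4.44, SE 0.557, adjusted p = 0.00016). In Cat-Tg CD4 cells it went from 29.3, 31.6 and 26.6 CPM to 333, 311 and 317 CPM, 8.78-fold higher (3.13, SE 0.222, adjusted p = 2.54e-07). Both Cat-Tg cell types thus showed wide gaps with no overlap, and the SD of the CD4 post-tx replicates was 11.5 CPM. In WT CD4 cells Tbx21 went from 61, 68.6 and 62.7 CPM to 335, 237 and 315 CPM (2.34, SE 0.214, adjusted p = 2.02e-06), or from 19.3 ± 2.1 to 39.2 ± 0.243 per 1000 T cell marker counts. In WT CD8 cells it went from 68.7, 44.2 and 89.3 CPM to 167, 868 and 412 CPM (2.96, SE 0.52, adjusted p = 0.000801). The spread of that last group was set by replicate 2, without which the log2 fold change was 2.03. Per 1000 T cell marker counts WT CD8 Tbx21 was 32.2, 19.6 and 43.1 pre-tx and 19.3, 52.1 and 35.2 post-tx, which overlap, and on that scaling the call was lost (0.17, adjusted p = 0.704).

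Eomes, the T-box factor of memory CD8 and NK cells, rose in Cat-Tg cells of both types. Values of Cat-Tg CD8 cells were 21.3, 17.9 and 16.2 CPM pre-tx and 46.3, 74.4 and 68 CPM post-tx, 3.43-fold higher (1.78, SE 0.469, adjusted p = 0.0213). This call did not survive leaving out Cat-Tg CD8 pre-tx replicate 1, 2 or 3 or post-tx replicate 2 (log2 fold change 1.64 to 1.84, adjusted p up to 0.0844), nor scaling to T cell markers (1.58, adjusted p = 0.0672). Values of Cat-Tg CD4 cells went from 1.58, 2.05 and 2.96 CPM to 6.92, 14.2 and 12.4 CPM, 4.05-fold higher (2.02, SE 0.617, adjusted p = 0.0155). NK cell markers other than Eomes, a list of 8 genes that includes the effector gene Gzma, also differed between Cat-Tg CD8 pre-tx and post-tx. The genes of this list did not all move in 1 direction. Ncr1, which defines NK cells, was at 0.0498 to 5.57 CPM pre-tx and at 5.27 to 16.6 CPM post-tx. Klra4, in contrast, was at the limit of 3 counts post-tx but not pre-tx. The part of these markers in the Eomes result was not tested. Eomes was not called in WT cells, where it was 25.5, 10.4 and 21.3 CPM pre-tx and 38.6, 21.9 and 27.2 CPM post-tx in CD8, and 2.35, 13.8 and 17.5 CPM pre-tx and 20.9, 9.49 and 18.7 CPM post-tx in CD4. The WT groups overlapped in both cell types.

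Id2 and Id3, which encode inhibitors of E proteins, moved in opposite directions in both cell types and genotypes, except that Id2 in WT CD8 cells turned on the T cell marker scaling. Id2 in Cat-Tg CD8 cells went from 163, 101 and 104 CPM to 758, 877 and 439 CPM, 5.65-fold higher (2.50, SE 0.421, adjusted p = 0.00155). For Cat-Tg CD4 cells it went from 168, 204 and 198 CPM to 1020, 718 and 768 CPM, 3.52-fold higher (1.82, SE 0.26, adjusted p = 9.71e-05). No post-tx value of these cells reached down to a pre-tx value. Values of WT CD4 cells went from 42.9, 60.5 and 48.9 CPM to 408, 574 and 787 CPM, 12.7-fold higher (3.66, SE 0.28, adjusted p = 3.85e-07), or from 15.3 ± 2.39 to 80.4 ± 28.1 per 1000 T cell marker counts. Values of WT CD8 cells went from 89.1, 74.4 and 96.1 CPM to 540, 208 and 467 CPM (2.35, SE 0.418, adjusted p = 0.000873). That WT CD8 direction turned when libraries were scaled to T cell markers (-0.08, adjusted p = 0.882), where the values were 41.7, 32.9 and 46.4 pre-tx and 62.4, 12.5 and 39.8 post-tx per 1000 T cell marker counts.

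Id3 was at 180, 119 and 177 CPM in Cat-Tg CD8 pre-tx and at 30.6, 35.3 and 23.8 CPM post-tx, 5.27-fold lower (-2.40, SE 0.432, adjusted p = 0.00239). In Cat-Tg CD4 cells it was at 188, 177 and 203 CPM pre-tx and at 84.9, 23.5 and 33.3 CPM post-tx, 4.99-fold lower (-2.32, SE 0.387, adjusted p = 0.000328). Replicate 1 was the highest of the 3 CD4 post-tx values, and without it the log2 fold change was -3.09. WT CD8 cells gave 133, 196 and 127 CPM pre-tx and 23.2, 59.5 and 26.8 CPM post-tx (-1.93, SE 0.425, adjusted p = 0.00389), and -2.70 without WT CD8 post-tx replicate 2. Per 1000 T cell marker counts these were 70.2 ± 14.4 and 2.85 ± 0.657. WT CD4 cells gave 250, 325 and 228 CPM pre-tx and 66.4, 43.5 and 59.1 CPM post-tx (-2.12, SE 0.384, adjusted p = 0.000964), or 79.9 ± 7.34 and 7.45 ± 0.325 per 1000 T cell marker counts. The 12 post-tx libraries and the 12 pre-tx libraries did not overlap for this gene.

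Prdm1, whose product BLIMP-1 marks terminally differentiated effector cells, was near the detection limit in Cat-Tg CD8 pre-tx at 1.24, 0.385 and 1.25 CPM. It measured 39.5, 27.5 and 19.5 CPM post-tx, 30.2-fold higher (4.92, SE 0.819, adjusted p = 0.00143). Values of Cat-Tg CD4 cells went from 3.95, 2.38 and 5.52 CPM to 20.4, 48.9 and 31.4 CPM (2.76, SE 0.557, adjusted p = 0.00139). Both comparisons had no overlap between pre-tx and post-tx. For WT CD4 cells it went from 7.38, 1.23 and 5.76 CPM to 32.1, 28.2 and 26.3 CPM (2.74, SE 0.557, adjusted p = 0.00224), a call lost on the T cell marker scaling (1.39, adjusted p = 0.0635), where the levels were 1.49 ± 1.01 and 3.9 ± 0.682. In WT CD8 cells the levels of 4.14, 2.8 and 11.2 CPM pre-tx and 23.5, 5.45 and 18.8 CPM post-tx overlapped and the gene was not called.

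Bcl6, the repressor opposed to BLIMP-1, was low in all groups. For WT CD8 cells it was at 38.4, 44 and 12.8 CPM pre-tx and at 1.62, 1.1 and 4.06 CPM post-tx, 12.7-fold lower (-3.66, SE 0.775, adjusted p = 0.00304), and -4.69 without WT CD8 post-tx replicate 3. It was 14.6 ± 7.3 pre-tx and 0.2 ± 0.141 post-tx per 1000 T cell marker counts. B cells of the germinal centre also use Bcl6, and this fall went with a fall in summed B cell markers from between 20400 and 22200 CPM to between 97.6 and 315 CPM, whose part was not tested. It was not called in the other 3 comparisons over time. There it measured 9.9, 3.98 and 4.03 CPM pre-tx and 4.49, 3.36 and 1.51 CPM post-tx in Cat-Tg CD8 cells. For Cat-Tg CD4 cells it measured 9.55, 4.05 and 10.9 CPM and then 10.3, 3.44 and 8.37 CPM. In WT CD4 cells it measured 23.1, 19.5 and 24.7 CPM and then 22.9, 11.6 and 11.8 CPM. The groups overlapped in each of these 3.

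Bach2, the repressor that holds T cells back from effector differentiation, was called lower in all 4 comparisons over time. For Cat-Tg CD8 cells it was at 25.3, 11.6 and 22.3 CPM pre-tx and at 3.09, 2.74 and 1.77 CPM post-tx, 7.71-fold lower (-2.95, SE 0.68, adjusted p = 0.0109). In Cat-Tg CD4 cells it was at 19.4, 15.3 and 13 CPM pre-tx and at 7.5, 7.02 and 4.97 CPM post-tx, 3.05-fold lower (-1.61, SE 0.432, adjusted p = 0.00775). The CD4 call rested on Cat-Tg CD4 pre-tx replicate 1 (-1.19 without it, adjusted p = 0.0569) and was lost on the T cell marker scaling (-0.97, adjusted p = 0.0882). In WT CD8 cells Bach2 was at 30.8, 78.5 and 52.2 CPM pre-tx and at 3.52, 6.98 and 0.876 CPM post-tx (-3.70, SE 0.703, adjusted p = 0.00143), and -4.75 without WT CD8 post-tx replicate 2. Per 1000 T cell marker counts that was 24.8 ± 10.2 and 0.3 ± 0.195. Values of WT CD4 cells were 15.8, 40.6 and 40.9 CPM pre-tx and at 9.83, 9.96 and 5.8 CPM post-tx (-1.78, SE 0.431, adjusted p = 0.00716), or 9.92 ± 4.86 and 1.17 ± 0.457 per 1000 T cell marker counts. Bach2 is also active in B cells, so the WT pre-tx levels stand beside the B cell markers given above.

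Zeb2, the zinc finger repressor of terminal effector cells, was not called higher in any of the 4 comparisons over time. It was called lower in WT CD8 cells alone, at 53.4, 25.1 and 87.5 CPM pre-tx and 5.48, 4.83 and 3.42 CPM post-tx, 11.2-fold lower (-3.49, SE 0.818, adjusted p = 0.00594), or 26.1 ± 15.6 and 0.405 ± 0.198 per 1000 T cell marker counts. In that comparison the summed myeloid markers fell from between 1810 and 3370 CPM to between 196 and 327 CPM, and Siglech, which defines plasmacytoid dendritic cells, was between 45.6 and 66.9 CPM pre-tx and between 0.199 and 4.28 CPM post-tx. Those cells also use Zeb2, and their part in the result was not tested. In Cat-Tg CD8 cells Zeb2 was at 3.78, 11.9 and 3.46 CPM pre-tx and at 9.18, 0.914 and 6.05 CPM post-tx. Values of Cat-Tg CD4 cells were 14.6, 17.4 and 11 CPM pre-tx and at 16.8, 15.9 and 16.4 CPM post-tx. For WT CD4 cells it was at 16.1, 17.8 and 18.5 CPM pre-tx and at 4.92, 9.57 and 10 CPM post-tx, with no overlap but no call. Zeb2 counts were spread over 29 transcripts, 17 of them coding, which took between 17.6% and 87.2% of its counts, and an antisense gene overlaps it that the index does not hold, so its level is uncertain.

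Batf, the AP-1 factor induced by antigen, rose in 3 of the 4 comparisons over time. Values of Cat-Tg CD8 cells went from 98.9, 90.5 and 102 CPM to 314, 311 and 269 CPM, 3.1-fold higher (1.63, SE 0.324, adjusted p = 0.00444). Values of WT CD8 cells went from 34.5, 48 and 32.6 CPM to 725, 632 and 423 CPM, 16.9-fold higher (4.08, SE 0.358, adjusted p = 4.65e-06). Per 1000 T cell marker counts this was a rise from 17.7 ± 3.1 to 52.6 ± 27.1, with a log2 fold change of 1.57 (adjusted p = 0.00209) on that scaling. In WT CD4 cells it went from 43.1, 33.4 and 28.6 CPM to 342, 235 and 301 CPM, 9.17-fold higher (3.20, SE 0.291, adjusted p = 1.92e-06), or from 10.5 ± 1.86 to 38.9 ± 1.21 per 1000 T cell marker counts (1.89, adjusted p = 2.37e-05). For Cat-Tg CD4 cells it measured 119, 114 and 127 CPM pre-tx and 287, 159 and 166 CPM post-tx, with no overlap but no call. The starting CPM lay higher in Cat-Tg than in WT cells of both types, but lower in CD8 cells per T cell marker count.

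Tox, the HMG box factor linked to chronic stimulation, was at 21.5, 23.4 and 19.3 CPM in Cat-Tg CD8 pre-tx and at 60.9, 74 and 38.7 CPM post-tx, 2.71-fold higher (1.44, SE 0.462, adjusted p = 0.0494). That call was just inside the threshold. It was lost on leaving out Cat-Tg CD8 pre-tx replicate 1, 2 or 3 or post-tx replicate 1 or 2 (1.25 to 1.49, adjusted p up to 0.179), and under 6 further settings beside the stricter fold and the covariates (DESeq2 size factors, no filter, length-scaled counts, the replicate block, T cell marker scaling, and a fit without the WT pre-tx libraries, with log2 fold changes from 1.24 to 1.53). Values of WT CD4 cells went from 15.6, 15.7 and 9.69 CPM to 77.3, 56.3 and 66.7 CPM, 5.36-fold higher (2.42, SE 0.354, adjusted p = 0.000159), or from 4.05 ± 0.615 to 8.9 ± 0.484 per 1000 T cell marker counts (1.14, adjusted p = 0.0156). In Cat-Tg CD4 cells it measured 32.4, 36.3 and 27.4 CPM pre-tx and 36.3, 40.1 and 17.7 CPM post-tx, and in WT CD8 cells 17.2, 21 and 10.3 CPM and then 41.1, 20.4 and 44.2 CPM, which overlap in both cases and were not called.

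**Figure D3:**
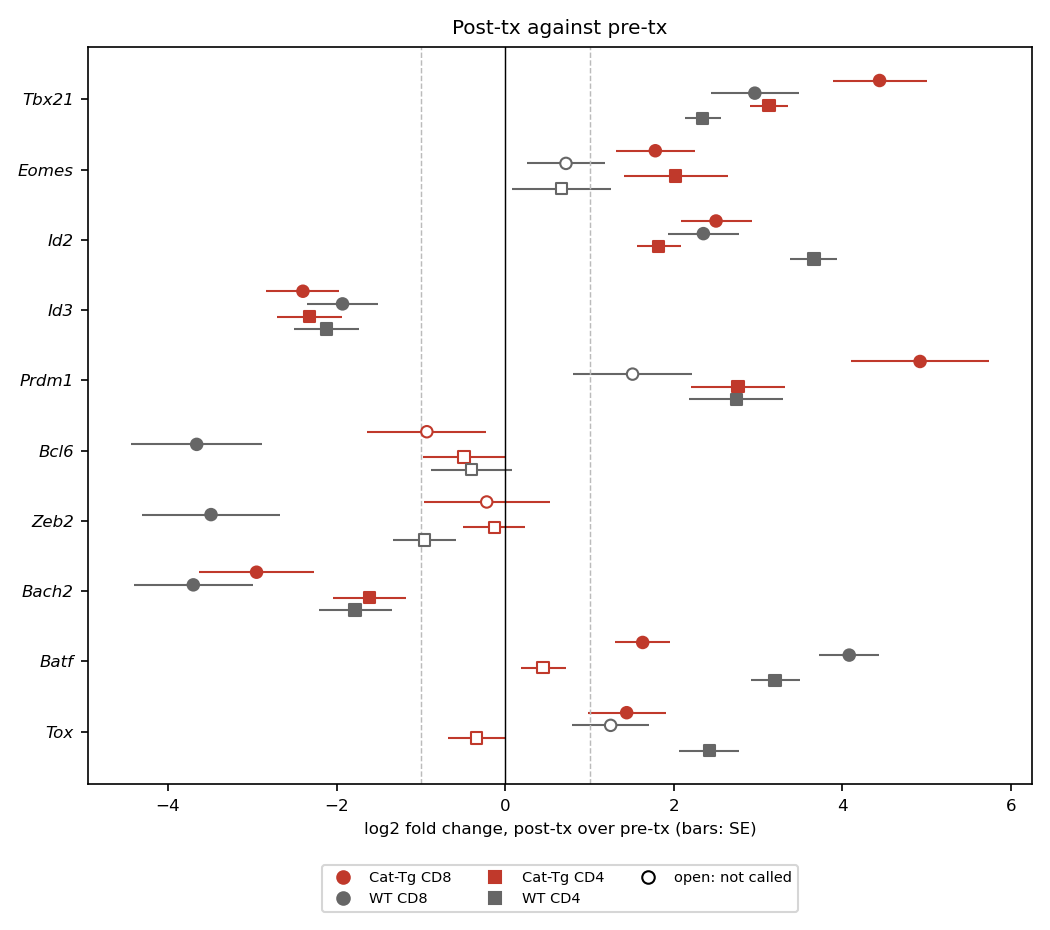
Log2 fold change of post-tx over pre-tx for the 10 genes in 4 comparisons drawn together (Cat-Tg red, WT grey, circles CD8, squares CD4, bars are SE, filled points called, open points not called, dashed lines at a fold of 2). Id3 and Bach2 lie left of 0 and are called in all 4 comparisons, and Tbx21 and Id2 lie right of 0 and are called in all 4.

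Ratios between opposed factors put these changes on 1 scale, from TPM. The ratio of Id2 to Id3 was 0.917, 0.867 and 0.629 in Cat-Tg CD8 pre-tx and 25.8, 25.3 and 19 post-tx. In Cat-Tg CD4 cells it was 0.928, 1.15 and 0.99 pre-tx and 13, 30.7 and 23.7 post-tx. Each genotype and cell type passed from about as much or less Id2 than Id3 to more Id2, the WT post-tx values lying between 3.49 and 23.6 in CD8 and between 6.32 and 13.5 in CD4. The ratio of Tbx21 to Eomes was 2.38 to 3.25 in Cat-Tg CD8 pre-tx and 16.6 to 20.1 post-tx. The ratio of Prdm1 to Bcl6 was 0.137 to 0.219 in Cat-Tg CD8 pre-tx and 7.49 to 12.1 post-tx, and that of Prdm1 to Bach2 was 0.0322 to 0.104 and then 5.48 to 20.5. The CD4 Prdm1 to Bcl6 ratio of Cat-Tg cells was 0.856 to 1.05 pre-tx and 2.1 to 14.1 post-tx. These ratios follow from the levels given above and were not tested.

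**Figure D4:**
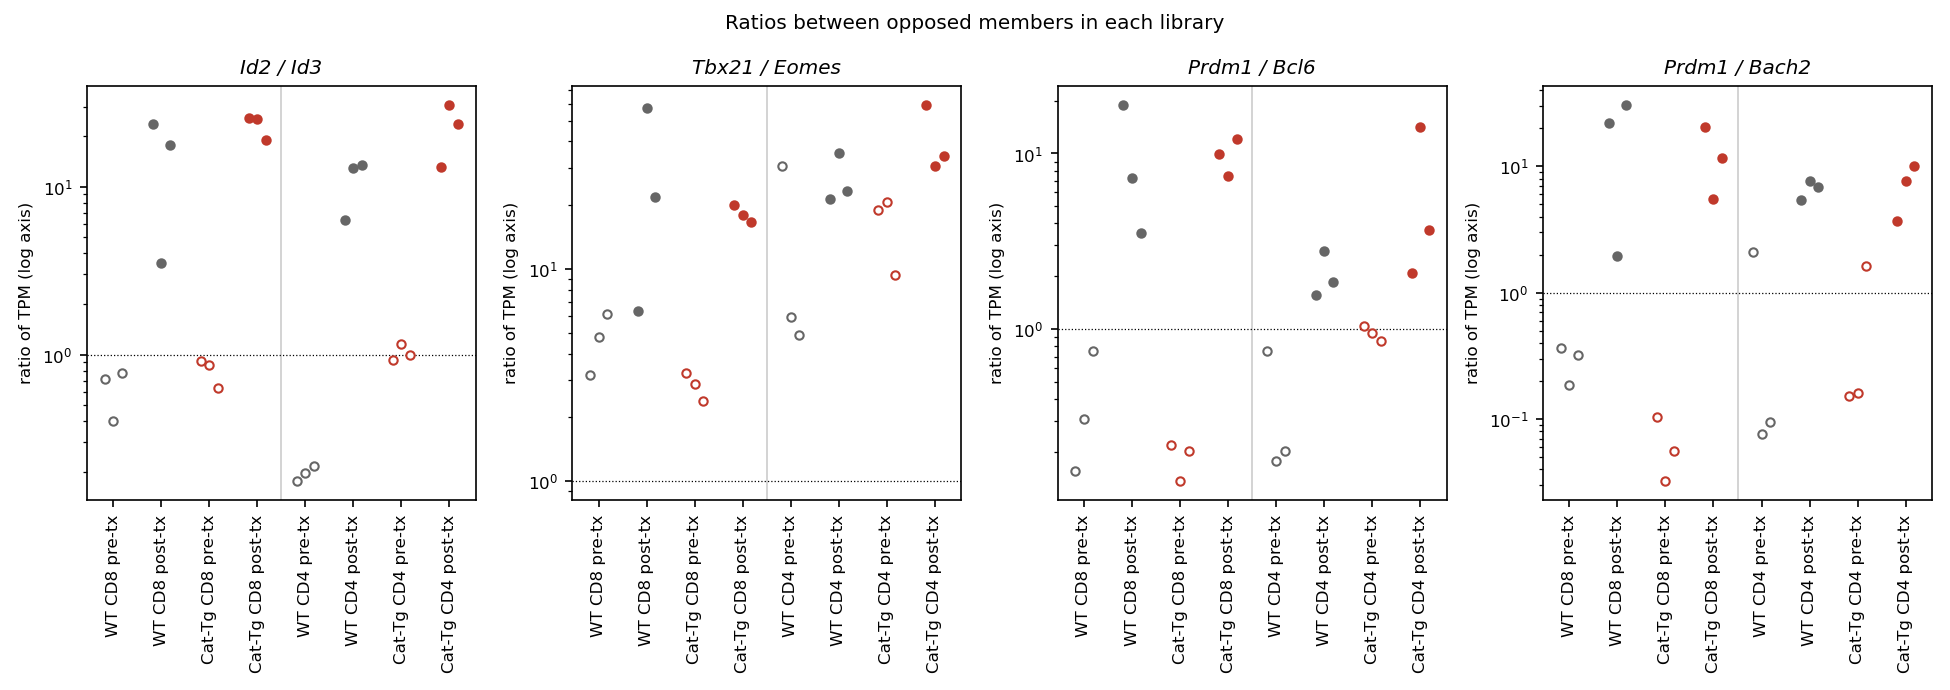
TPM ratios (log axis) of Id2 to Id3, Tbx21 to Eomes, Prdm1 to Bcl6 and Prdm1 to Bach2 in each library, by group (open points pre-tx, filled points post-tx, WT grey, Cat-Tg red). The Id2 to Id3 ratio lies between 0.176 and 1.15 in all pre-tx libraries and between 3.49 and 30.7 in all post-tx libraries.

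The comparison of Cat-Tg with WT cells after transplant asked whether the transgene altered these factors once the cells were in the recipient. In CD8 cells edgeR called 0 of the 10 genes, against 1.67% of 15960 genes. DESeq2 called 1 of the 10, and over all genes it called 1357 where edgeR called 266. Of the 10 genes 2 had an unadjusted p under 0.05 in edgeR. These were Batf, at 314, 311 and 269 CPM (Cat-Tg) and 725, 632 and 423 CPM (WT, log2 fold change -1.07, SE 0.319, adjusted p = 0.093), and Eomes, at 46.3, 74.4 and 68 CPM in Cat-Tg against 38.6, 21.9 and 27.2 CPM in WT (1.03, SE 0.46, adjusted p = 0.239). Neither pair of groups overlapped, 2 of 10 genes against 25.3% of all, and DESeq2 gave -1.19 for Batf with an adjusted p of 0.00944. The other 8 log2 fold changes ran from -0.65 (Bach2, SE 0.643) to 0.77 (Prdm1, SE 0.692) and included 0.68 (SE 0.485) for Tbx21 and 0.68 (SE 0.4) for Id2. The SEs reached 0.748 (Zeb2), so that the absence of a call does not show equal levels. Without WT CD8 post-tx replicate 2 the direction turned for Id3 (0.27) and Bach2 (0.25), and without Cat-Tg CD8 post-tx replicate 1 it turned for Bcl6 (-0.01) and Zeb2 (-0.44). Over all genes the count of calls in this comparison was 266, but 6 and 5 without Cat-Tg CD8 post-tx replicates 1 and 2, 550 without replicate 3, and 406 and 571 without WT CD8 post-tx replicates 1 and 2.

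In CD4 cells after transplant edgeR called 1 of 10 genes, Tox, against 10% of 17227 genes. Tox was at 36.3, 40.1 and 17.7 CPM in Cat-Tg against 77.3, 56.3 and 66.7 CPM in WT, 2.48-fold lower in Cat-Tg with no overlap (-1.31, SE 0.341, adjusted p = 0.0231). The call was lost without Cat-Tg CD4 post-tx replicate 3 (-1.01, adjusted p = 0.105), WT replicate 1 (-1.18, adjusted p = 0.079) or WT replicate 2 (-1.39, adjusted p = 0.0554), and on the T cell marker scaling (-0.87, adjusted p = 0.116), whereas 3 genes were called without Cat-Tg CD4 post-tx replicate 1. T cell markers summed to 6600 ± 791 CPM (Cat-Tg) and 7520 ± 1280 CPM (WT) beside the larger myeloid and B cell sums of the Cat-Tg libraries given above, whose part was not tested. Tbx21, at 333, 311 and 317 against 335, 237 and 315 CPM, and Prdm1, at 20.4, 48.9 and 31.4 against 32.1, 28.2 and 26.3 CPM, overlapped between the genotypes. Bcl6, at 10.3, 3.44 and 8.37 CPM in Cat-Tg against 22.9, 11.6 and 11.8 CPM in WT, did not overlap but was not called. Zeb2 was higher in Cat-Tg, at 16.8, 15.9 and 16.4 against 4.92, 9.57 and 10 CPM, also with no overlap and no call. The share of all genes without overlap is not given for this comparison, so nothing on the 10 genes as a set is read from these values.

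**Figure D5:**
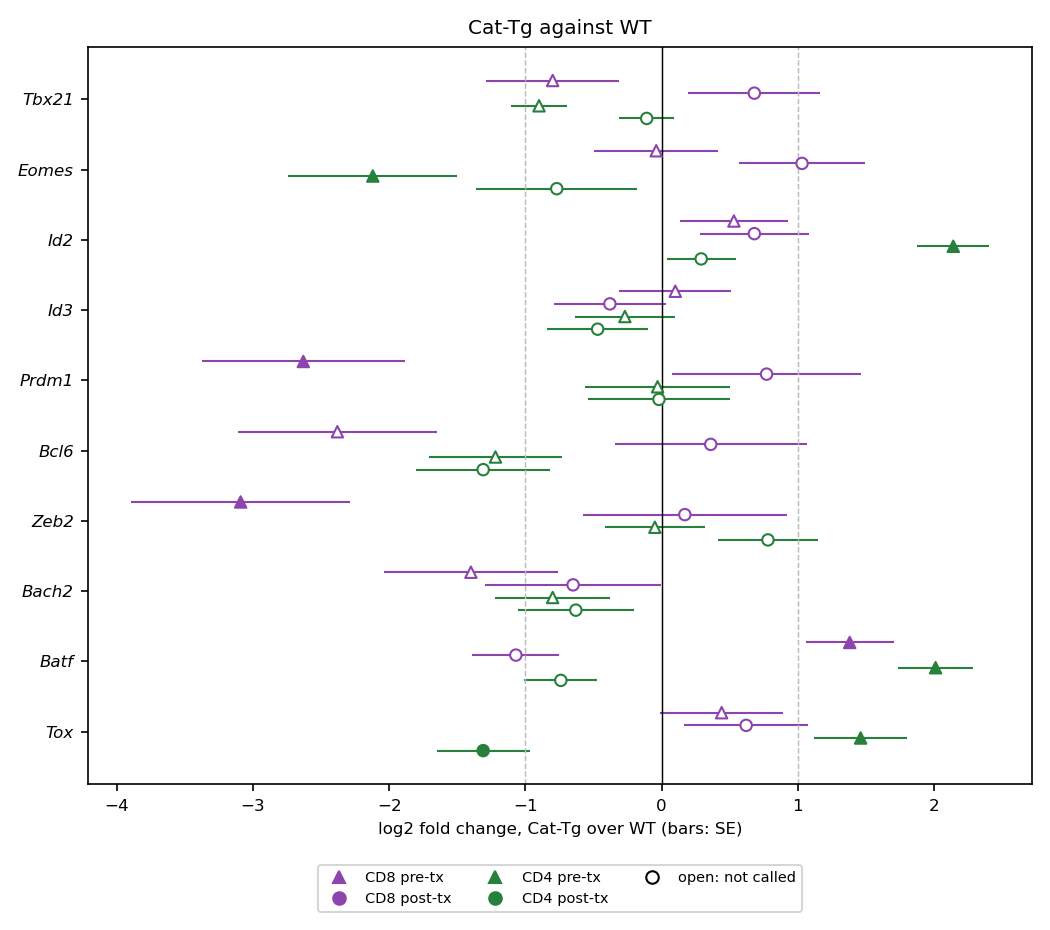
Log2 fold change of Cat-Tg over WT for the 10 genes (bars are SE, purple CD8, green CD4, triangles pre-tx, circles post-tx, filled symbols called, open symbols not called, dashed lines at a fold of 2). The only filled circle is Tox in CD4 cells, at -1.31, and the filled triangles rest on the WT pre-tx libraries that hold B cell RNA.

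Before transplant 3 of 10 genes were called between genotypes in CD8 cells, against 8.97% of genes, and 4 of 10 in CD4 cells, against 18.2%. All of these rest on the WT pre-tx libraries. In CD8 cells Prdm1 was at 1.24, 0.385 and 1.25 CPM in Cat-Tg against 4.14, 2.8 and 11.2 CPM in WT (-2.63, SE 0.744, adjusted p = 0.0373), or 0.0914 ± 0.0405 against 2.86 ± 2.23 per 1000 T cell marker counts. Plasma cells also use Prdm1, and 7 plasma cell markers summed to 151 ± 49.1 CPM (Cat-Tg) and 1010 ± 466 CPM (WT). Zeb2 was at 3.78, 11.9 and 3.46 CPM in Cat-Tg against 53.4, 25.1 and 87.5 CPM in WT (-3.09, SE 0.802, adjusted p = 0.0253), or 0.683 ± 0.606 against 26.1 ± 15.6 per 1000 T cell marker counts. Batf was at 98.9, 90.5 and 102 CPM in Cat-Tg against 34.5, 48 and 32.6 CPM in WT (1.38, SE 0.322, adjusted p = 0.0142), but at 9.19, 10.5 and 9.32 against 16.1, 21.3 and 15.7 per 1000 T cell marker counts, so that its direction turned (-0.87, adjusted p = 0.046). Leaving out Cat-Tg CD8 pre-tx replicate 1 or 3 or WT CD8 pre-tx replicate 1 or 3 ended these 3 calls (adjusted p up to 0.161, with Prdm1 at -1.85 without WT replicate 3), and Cat-Tg replicate 2 ended that of Prdm1 and moved Zeb2 to -3.92.

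In CD4 cells before transplant Id2, Batf and Tox were called higher and Eomes lower in Cat-Tg. Id2 was at 168, 204 and 198 CPM in Cat-Tg against 42.9, 60.5 and 48.9 CPM in WT (2.14, SE 0.263, adjusted p = 7.68e-05). Batf was at 119, 114 and 127 CPM in Cat-Tg against 43.1, 33.4 and 28.6 CPM in WT (2.01, SE 0.278, adjusted p = 0.000171). Both differences were lost on the T cell marker scaling, at 0.59 (adjusted p = 0.0582) for Id2 and 0.48 (adjusted p = 0.0948) for Batf. Tox was at 32.4, 36.3 and 27.4 CPM in Cat-Tg against 15.6, 15.7 and 9.69 CPM in WT (1.46, SE 0.344, adjusted p = 0.0067), but -0.06 (adjusted p = 0.899) on that scaling and 1.04 (adjusted p = 0.0684) without WT CD4 pre-tx replicate 3. Eomes was at 1.58, 2.05 and 2.96 CPM in Cat-Tg against 2.35, 13.8 and 17.5 CPM in WT, which overlap (-2.12, SE 0.619, adjusted p = 0.0234). That call was lost without Cat-Tg CD4 pre-tx replicate 1 or 2 or WT replicate 2 or 3 (adjusted p up to 0.0797), and the value was -2.85 without WT replicate 1. Per 1000 T cell marker counts Id2 was 22.2, 23 and 23.9 in Cat-Tg and 12.5, 16.3 and 16.9 in WT, Batf was 14.6 ± 1.52 and 10.5 ± 1.86, Tox was 3.89 ± 0.512 and 4.05 ± 0.615, and Eomes was 0.208, 0.231 and 0.358 against 0.684, 3.71 and 6.08.

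The interaction of time and genotype tested whether the change with transplant differed between Cat-Tg and WT cells. In CD8 cells 2 of 10 genes were called, against 10.7% of genes: Prdm1 rose more in Cat-Tg (3.41, SE 1.01, adjusted p = 0.0419) and Batf rose less (-2.45, SE 0.453, adjusted p = 0.00339). In CD4 cells 3 of 10 were called, against 21.2%, and Id2 (-1.85, SE 0.36, adjusted p = 0.00257), Batf (-2.75, SE 0.385, adjusted p = 0.00024) and Tox (-2.77, SE 0.484, adjusted p = 0.00125) rose less in Cat-Tg or did not rise. The Prdm1 call was lost in 8 of 12 fits that each left out 1 library (2.61 to 3.82, adjusted p up to 0.114): Cat-Tg CD8 pre-tx replicate 1, 2 or 3, Cat-Tg CD8 post-tx replicate 1 or 2, WT CD8 pre-tx replicate 1 or 3 (2.61 without the latter), and WT CD8 post-tx replicate 3. With coding transcripts of the 10 genes only, the CD8 count was 1. Coding transcripts carried 7.59% to 100% of Prdm1 counts and 94.6% to 99.9% of Batf counts in the WT CD8 pre-tx libraries. Without WT CD4 pre-tx replicate 3 the Tox value was -2.15, and without WT CD4 pre-tx replicate 1 the CD4 count was 5. On the T cell marker scaling 4 of the 5 calls were lost, with Batf at -0.13 in CD8 and -0.83 in CD4, Tox at -0.82 and Id2 turned to 0.06, while Prdm1 in CD8 was still called. That scaling also called other genes of the 10 that the main fit did not. Over all genes it called 6537 of 15960 in the CD8 interaction, against 1709 in the main fit, so the Prdm1 call on it is no added support. The interactions use the WT pre-tx libraries and share them with the comparisons above.

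CD8 and CD4 cells of the same genotype and time were compared for all groups except WT pre-tx, whose markers did not separate the cell types. Both cell types came from the same mice, so a fit with the replicate number as a block is given where it ended a call. In Cat-Tg pre-tx 1 of 10 genes was called, against 1.53% of 19076 genes: Eomes, at 21.3, 17.9 and 16.2 CPM in CD8 and 1.58, 2.05 and 2.96 CPM in CD4 (3.07, SE 0.571, adjusted p = 0.00278). In Cat-Tg post-tx 2 of 10 were called, against 5.85%, with Eomes 5.6-fold (2.49, SE 0.551, adjusted p = 0.00569) and Tbx21 2.57-fold (1.36, SE 0.385, adjusted p = 0.0341) higher in CD8. The Tbx21 levels were 699, 965 and 799 CPM in CD8 and 333, 311 and 317 CPM in CD4, yet its call was lost in 5 of 6 fits that left out 1 library, all but that without Cat-Tg CD8 post-tx replicate 1 (1.34 to 1.55, adjusted p up to 0.115). On the T cell marker scaling both calls were lost, at 1.65 (adjusted p = 0.0763) for Eomes and 0.56 (adjusted p = 0.245) for Tbx21. With the replicate block that of Tbx21 was lost (1.35, adjusted p = 0.104).

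In WT post-tx 2 of 10 genes were called between CD8 and CD4 cells, against 12.8% of genes. Bcl6 was at 1.62, 1.1 and 4.06 CPM in CD8 and 22.9, 11.6 and 11.8 CPM in CD4, 6.76-fold lower in CD8 (-2.76, SE 0.644, adjusted p = 0.00513), and -3.45 without WT CD8 post-tx replicate 3. Batf was at 725, 632 and 423 CPM in CD8 and 342, 235 and 301 CPM in CD4 (1.02, SE 0.283, adjusted p = 0.0175). The Batf call was lost without WT CD4 post-tx replicate 2 (0.88, adjusted p = 0.0953) or 3 (1.04, adjusted p = 0.056) and under 6 further settings other than the stricter fold, the replicate block among them (1.00, adjusted p = 0.0652). For the difference between CD8 and CD4 cells in the effect of genotype after transplant, 0 of 10 genes were called by edgeR and by DESeq2, against 0.629% of genes, with 2 (Eomes and Tox) at an unadjusted p under 0.05. For the difference between them in the change with transplant in Cat-Tg, again 0 of 10 were called by either tool, against 0.949%, with 3 (Bach2, Batf and Tox) at an unadjusted p under 0.05. So the changes with transplant were not shown to differ between Cat-Tg CD8 and CD4 cells.

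Per length, the order of the genes within a group also changed. In Cat-Tg CD8 pre-tx the highest levels were Id3 at 112 ± 17.8 TPM, Batf at 102 ± 2.68 and Id2 at 90.5 ± 24.3, with Tbx21 at 12 ± 3.35. Post-tx they were Id2 at 565 ± 180 TPM, Batf at 352 ± 30.3 and Tbx21 at 294 ± 33.7 (SD, n = 3), while Id3 was at 23.7 ± 4.34 TPM. In Cat-Tg CD4 post-tx Id2 was at 882 ± 66.2 TPM, Batf at 299 ± 47.5 and Tbx21 at 151 ± 11.6. Prdm1, Bcl6, Zeb2 and Bach2 stayed at or below 12.1 TPM on average in every post-tx group. Coding transcripts carried at least 84% of the counts of Tbx21, Eomes, Id2, Id3, Bach2 and Batf in each library, but as little as 7.59% for Prdm1, 38.8% for Bcl6 and 63.2% for Tox.

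The order of the 8 group means differed between genes. For Tbx21 it ran from Cat-Tg CD8 post-tx (821 ± 135 CPM) through WT CD8 post-tx (483 ± 356), Cat-Tg CD4 post-tx (320 ± 11.5) and WT CD4 post-tx (295 ± 51.8), neighbours that overlapped, to the pre-tx groups, from 67.4 ± 22.6 down to 29.2 ± 2.48. For Batf it ran from WT CD8 post-tx (593 ± 155 CPM), which did not overlap the next group, to WT CD4 pre-tx (35 ± 7.42). The span from the highest to the lowest group mean was 35-fold for Prdm1, 28.6-fold for Eomes and 28.2-fold for Tbx21, and was narrowest, 4.89-fold, for Tox. For Tox each group overlapped its neighbour in that order.

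Other genes of the programme were counted from lists, to be read against the 13.9% (Cat-Tg CD8), 40.9% (Cat-Tg CD4), 23.6% (WT CD8) and 22.1% (WT CD4) of all genes called over time in either direction. These lists too were chosen with earlier results of these data known, so the counts are a description. Of 15 effector readout genes, 14 rose in Cat-Tg CD8 cells (median log2 fold change 3.75, against -0.26 over all genes tested), among them Gzmb, which encodes granzyme B (7.29, SE 0.718), Gzma (7.51, SE 0.913) and the chemokine receptor Cx3cr1 (7.67, SE 0.758). In the other groups 12 rose and 1 fell (WT CD8), 9 rose (Cat-Tg CD4) and 11 rose and 1 fell (WT CD4). Of 15 naive and memory readout genes, 7 fell and 1 rose in Cat-Tg CD8 cells, with Ccr7, the lymph node homing receptor, at -7.40 (SE 0.64) and Il7r at -3.04 (SE 0.461). The same list gave 8 lower and 2 higher in Cat-Tg CD4, 9 lower and 1 higher in WT CD8, and 5 lower and 6 higher in WT CD4. Of 12 naive and stem-like transcription factors 2 fell in Cat-Tg CD8 cells, Tcf7, which encodes TCF-1, at -3.28 (SE 0.456) and Lef1 at -1.71 (SE 0.345), and 4 fell in Cat-Tg CD4. In WT CD8 cells 7 of the 12 fell, among them Tcf7 (-2.65, SE 0.445), Lef1 (-1.82, SE 0.347) and Foxp1 (-3.85, SE 0.502), and in WT CD4 cells 3 rose and 1 fell. Of 16 activation-induced factors 8 rose in Cat-Tg CD8 (Bhlhe40 7.74, SE 0.637 and Nfil3 4.21, SE 1.27), and 9 rose in Cat-Tg CD4, 2 in WT CD8 and 10 in WT CD4.

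Partners of the 10 factors formed a further list. Of 20 genes, 17 were tested in CD8 cells and 18 in CD4 cells, and in Cat-Tg CD8 cells 3 of the 17 rose (against 13.9% of all genes called), including Irf4, the partner of BATF (3.22, SE 1, adjusted p = 0.0448), and Irf8 (2.69, SE 0.582, adjusted p = 0.0076). In the CD4 cells of those mice 7 of 18 were higher and 1 lower, against 40.9% of all genes. Between genotypes after transplant, 0 of 17 partners were called in CD8 cells, against 1.67% of all genes, so that 0 says little about the partners. In CD4 cells, where 10% of all genes were called, Tox2, a relative of Tox, was lower in Cat-Tg (-2.99, SE 0.502, adjusted p = 0.00225). Batf3, a relative of Batf, was higher (2.88, SE 0.595, adjusted p = 0.00638). Batf3 is a factor of conventional dendritic cells too, and its rise went with the higher myeloid markers of Cat-Tg CD4 post-tx, whose part was not tested. Among the other lists, Gata3 (2.49, SE 0.389), Bhlhe40 (2.05, SE 0.49) and S1pr5, a receptor of circulating effector cells (4.17, SE 0.743), were higher in Cat-Tg CD8 cells after transplant. In the same libraries the summed myeloid markers were 565 ± 192 CPM (Cat-Tg) and 255 ± 66.6 CPM (WT), and 8 erythroid markers summed to 3950 ± 841 and 880 ± 1020 CPM, whose part was not tested. In CD4 cells Tcf7 (-1.15, SE 0.222), Ifng (-1.73, SE 0.392), Prf1, which encodes perforin (-1.11, SE 0.254), Cxcr5, the receptor of follicular helper cells (-2.28, SE 0.251), and Slamf6 (-1.39, SE 0.384) were lower in Cat-Tg. Other listed genes were called higher, among them Igfbp4 (1.59, SE 0.284), and 10% of all genes were called in either direction. Cd247, Cd3d, Cd3e, Cd3g and Trac were also lower, from -0.88 to -0.49, but not called, as each fell short of a fold of 2. Of these, Cd247 (adjusted p = 0.0346) and Trac (adjusted p = 0.0372) passed the p threshold in edgeR. The part of the higher B cell and myeloid sums of Cat-Tg CD4 post-tx in these values was not tested.

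The genes whose log2 CPM followed each factor most closely were sought among 8377 genes with a mean of at least 10 CPM, over the 18 libraries other than WT pre-tx, which share cell type and transplant differences. Tbx21 was followed by Cdc25b, a cell cycle phosphatase (Pearson r = 0.987), and by Actg1 (0.986). Eomes was followed by Glipr2 (0.936) and by Gzmm, which encodes granzyme M (0.91). Id2 was followed by Wipf1 (0.949), Prdm1 by Emp1 (0.95), Batf by Lgals1 (0.94) and by Tnfrsf9, which encodes the costimulatory receptor 4-1BB (0.934). Id3 was followed most closely by Ddx3y (0.928). Bach2 (0.933) and Id3 (0.905) both had Rflnb among their 2 closest genes. Bcl6 was followed by Itpr2 (0.804) and Cxcr5 (0.789), Zeb2 by Wdr44 (0.861) and Tox by Dbf4 (0.799). These values describe the libraries and carry no test.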

How the data were processed

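Sorted spleen T cells were profiled from total RNA with a SMART-Seq HT kit, which does not mark strand, and Nextera XT libraries. The authors quantified reads with Kallisto 0.46.2 and deposited, for each of 117497 transcripts, an estimated count and a TPM value. The notes name the build mm9, and the release of the transcript index is not given in the sources used here. Estimated counts were summed to 35817 gene symbols of GENCODE M21, which took up 99.57% to 99.75% of each library, and were rounded. A gene was kept when at least 3 libraries exceeded 1 CPM. The main test was edgeR 4.0.16 (TMM, robust quasi-likelihood fit) on the 12 libraries of a cell type, or on all 24 between cell types, in R 4.3.3, with the SE taken as the absolute log2 fold change over the square root of F. Code was tested on simulated data. Alternatives used limma 3.58.1, DESeq2 1.42.0, other scalings and fits, a replicate block, and leaving out each library. The labels do not say that a replicate number marks a mouse. The correlation of deviations between samples sharing a number was not above 0.1 in all 3 pairs of any comparison (its lowest pair lay between -0.254 and 0.0634), so the main fits were not blocked. The genes, gene lists and marker lists were chosen with earlier results of these data known. Each of the 10 genes is described, and from other lists those named were the genes of largest change or of well-known function. A fold change is given for each called value and for the comparison of genotypes in CD8 cells after transplant, and levels alone for other values. Promoter sequences came from RefSeq (GRCm38.p6), matched by symbol, for 9 of the 10 genes, all but Tox.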

Additional observations from a re-analysis of the deposited data

Results flagged for a closer look

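In 5 cases the change with transplant differed between Cat-Tg and WT cells by the edgeR interaction test. In CD8 cells the difference was 3.41 (SE 1.01, adjusted p = 0.0419) for Prdm1 and -2.45 (SE 0.453, adjusted p = 0.00339) for Batf. In CD4 cells it was -1.85 (SE 0.36, adjusted p = 0.00257) for Id2, -2.75 (SE 0.385, adjusted p = 0.00024) for Batf and -2.77 (SE 0.484, adjusted p = 0.00125) for Tox. Values are log2 differences, Cat-Tg minus WT. Batf was the gene in which both cell types showed a smaller rise in Cat-Tg, from a higher starting CPM (90.5 to 127 CPM in Cat-Tg and 28.6 to 48 CPM in WT pre-tx). Per 1000 T cell marker counts the starting Batf levels were 9.19 to 10.5 in Cat-Tg and 15.7 to 21.3 in WT CD8 cells. All 5 use the WT pre-tx libraries, whose summed B cell markers lay between 20400 and 36900 CPM, and the part of that difference was not tested. On the T cell marker scaling 4 of the 5 calls were lost (Batf -0.13 in CD8 and -0.83 in CD4, Tox -0.82, Id2 0.06). Over all genes that scaling called 6537 of 15960 in the CD8 interaction. The Prdm1 call was lost in 8 of 12 fits that each left out 1 library. Coding transcripts carried 7.59% to 100% of the Prdm1 counts in the WT CD8 pre-tx libraries.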

How the results depend on the processing

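The count of called genes among the 10 stayed within 1.5 times its main value in 149 of 187 alternative values other than those that left out single libraries. The other 38 and the values that changed direction are as follows, and the cause was not tested. With B cell and myeloid marker scores as covariates the count was 0 in each of the 12 comparisons that had a call. Over all genes that fit also called 0 in the comparisons over time and between genotypes. The direction also turned there over time for Id2 (-0.80), Id3 (1.10), Bach2 (4.95) and Tox (-1.82) in Cat-Tg CD8 cells, Id2 (-1.36), Id3 (2.69) and Bach2 (5.17) in WT CD8 cells, Bach2 (2.20) in Cat-Tg CD4 cells, and Id2 (-0.39) and Bach2 (0.17) in WT CD4 cells. It turned as well for the CD4 interaction of time and genotype of Id2 (1.67), and between genotypes in CD8 cells post-tx for Eomes (-0.10), Id2 (-0.81), Id3 (1.23), Prdm1 (-0.42), Bcl6 (-1.88), Bach2 (3.39) and Tox (-0.64).

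Scaling to T cell markers gave counts of 9 and 7 between genotypes pre-tx (CD8 and CD4), 0 in CD4 post-tx, 4 and 4 between cell types post-tx (Cat-Tg and WT), and 9 and 6 for the interactions of time and genotype. Over all genes this scaling called 9737 of 15960 (CD8) and 7877 of 17227 (CD4) between genotypes pre-tx. It called 2115 of 19076 between Cat-Tg cell types post-tx, and 6537 of 15960 and 6815 of 17227 for the interactions. It turned Id2 over time in WT CD8 cells (-0.08), Batf (-0.87) in CD8 and Tox (-0.06) in CD4 cells between genotypes pre-tx, and the CD4 interaction of Id2 (0.06). It moved the median log2 fold change of all genes to -2.74 and -1.43 over time in WT CD8 and CD4 cells and to -2.30 and -1.53 between genotypes pre-tx, and the share of called genes that were higher to 1.7%, 4.71%, 0.472% and 2.78%. With DESeq2 size factors that share moved from 32.3% to 42.3% over time in Cat-Tg CD4, from 67.5% to 53.1% between genotypes in CD4 pre-tx, from 44.6% to 55.9% between WT cell types and from 33.9% to 52.4% for the CD4 interaction.

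A log2 fold threshold of 2 gave 5 over time in Cat-Tg CD8 cells, 0 between genotypes in CD4 post-tx, and 1 and 1 between cell types post-tx. DESeq2 gave 1 between genotypes in CD8 post-tx, 2 between Cat-Tg cell types pre-tx and 4 for the CD8 interaction. Over all genes it called 1357 and 623 in the first 2 of these, against 266 and 291 in the main fits. Limma-voom gave 2 in CD4 post-tx, 1 between WT cell types and 1 for the CD8 interaction, and turned Zeb2 in CD8 post-tx (-0.31). Length-scaled TPM counts gave 2 in CD4 post-tx and 2 between Cat-Tg cell types pre-tx, and turned Zeb2 (-0.17) and Bach2 (0.63) in CD8 post-tx. Between WT cell types the count was 1 with no filter, with only the groups compared and, as a fit chosen after seeing the data, without the WT pre-tx libraries. With only the groups compared it was 0 in CD4 post-tx. Coding transcripts of the 10 genes only, also chosen after seeing the data, gave 1 for the CD8 interaction.

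The replicate block gave 1 between cell types post-tx in Cat-Tg (Tbx21 lost, 1.35, adjusted p = 0.104) and 1 in WT (Batf lost, 1.00, adjusted p = 0.0652). It also ended the calls of Tox over time in Cat-Tg CD8 cells (1.42, adjusted p = 0.0694) and of Zeb2 between genotypes in CD8 pre-tx (-2.94, adjusted p = 0.0572), and ended no other call. Per the study's methods both cell types were sorted from each mouse, pre-tx and post-tx. The replicate numbers were not shown to pair the samples, and each sample correlated best with its own number only over time in Cat-Tg CD4 cells and between genotypes in CD8 pre-tx.

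Leaving out each library gave counts of 6 to 8 over time in Cat-Tg CD8, 7 to 8 over time in WT CD8, 5 to 6 over time in Cat-Tg CD4, 7 over time in WT CD4, 0 to 3 between genotypes in CD8 pre-tx, 0 between genotypes in CD8 post-tx, 3 to 6 between genotypes in CD4 pre-tx, 0 to 3 between genotypes in CD4 post-tx, 1 between cell types in Cat-Tg pre-tx, 1 to 2 between cell types in Cat-Tg post-tx, 1 to 3 between cell types in WT post-tx, 1 to 3 for the interaction of time and genotype in CD8, 3 to 5 for the interaction of time and genotype in CD4, 0 for the difference in genotype effect between cell types post-tx and 0 for the difference in change over time between Cat-Tg cell types. Between genotypes in CD8 post-tx the log2 fold changes that turned ranged from -0.01 to 1.26 (Bcl6), -0.44 to 0.68 (Zeb2), -0.49 to 0.27 (Id3) and -0.97 to 0.25 (Bach2). The ranges over all genes that follow do not come from leaving out libraries. They come from the other alternatives, without those that changed only the threshold. Over all genes the number called moved by more than 1.5 times in each comparison: 2226 over time in Cat-Tg CD8 against 0 to 4255, 3763 over time in WT CD8 against 0 to 10970, 7045 over time in Cat-Tg CD4 against 0 to 8105, 3802 over time in WT CD4 against 0 to 8018, 1431 between genotypes in CD8 pre-tx against 0 to 9737, 266 between genotypes in CD8 post-tx against 0 to 1357, 3137 between genotypes in CD4 pre-tx against 0 to 7877, 1725 between genotypes in CD4 post-tx against 0 to 2579, 291 between cell types in Cat-Tg pre-tx against 10 to 623, 1115 between cell types in Cat-Tg post-tx against 5 to 2115, 2441 between cell types in WT post-tx against 14 to 3493, 1709 for the interaction of time and genotype in CD8 against 1 to 6537, 3659 for the interaction of time and genotype in CD4 against 0 to 6815, 120 for the difference in genotype effect between cell types post-tx against 1 to 714, 181 for the difference in change over time between Cat-Tg cell types against 79 to 528. The 94 values that were not called and are given as levels were also refitted: 39 passed the threshold under some alternative, 19 of them under one other than the 2 on cell makeup, and 27 changed direction under such an alternative or without 1 library.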
